A study of Mus musculus with 4 samples.

Results

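The genes described here code for actin and for the small proteins that control how actin assembles: the cytoplasmic actins Actb and Actg1, the beta-thymosins Tmsb15a, Tmsb4x and Tmsb10, the profilins Pfn1, Pfn2, Pfn3 and Pfn4, and the cofilin Cfl1. They are 10 of the 22552 gene symbols in the expression tables, and each was found by its symbol. The set was chosen from results of these same data, because Tmsb15a and Actb were seen to be lower in the knockout, so the genotype difference of the members is given as a description and supports nothing by itself. RNA was sequenced from haploid cells, labelled as round spermatids, that were sorted by their Hoechst staining from testes of mice aged 23 days. Of 4 libraries, 2 are labelled wild type and 2 Sox30 knockout, the knockout mice lacking a transcription factor of the SOX family. The background strain is labelled DBA/C57/ICR for wild-type library 1, DBA/C58/ICR for knockout library 1, DBA/C59/ICR for wild-type library 2 and DBA/C60/ICR for knockout library 2. The number in these labels goes up by 1 from library to library, so it is doubtful that they name 4 different strains, and strain was not used. The labels name neither the part of Sox30 that was removed nor the number of animals behind a library, so the spread between libraries of a genotype may be technical.

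Actin exists as single molecules and as filaments, and the balance between these forms is set by proteins that bind the monomer or the filament. Beta-thymosins hold monomers back from assembly, profilins hand monomers to growing filament ends, and cofilin severs and takes apart older filaments. In spermatids, actin lies between the acrosome and the nucleus and around the developing head, and some of these proteins have forms made mainly in the testis. Here Pfn3, Pfn4 and Tmsb15a were taken as testis forms and the other 7 as widely expressed forms.

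Levels were given as FPKM, fragments per kilobase of transcript scaled to the mapped fragments of the library. The transcripts differ much in length, from 299 bases for Tmsb15a and 545 for Pfn3 to 1920 for Actb and 2354 for Cfl1 (GENCODE M21). How short transcripts were treated is not stated, so ranks, sums, shares and ratios across genes are approximate. Sequencing depth is unknown from these tables. Sox30 itself stood at 11.4 and 16.2 FPKM in wild-type cells against 1.46 and 3.16 FPKM in knockout cells. The knockout libraries listed more symbols at 0, 41.4% and 49.3% against 28.4% and 26.2%. Of 20 housekeeping genes, 0 were at 0 in either wild-type library and 1 in each knockout library. Whether a listed 0 marks a failed estimate or an absent transcript was not tested. All 10 round spermatid markers examined were above 0 in every library, 6 of them being lower in both knockout libraries (3 past the threshold of the test described next). These 3 were Acrv1, Spaca1 and Hspa1l. Acrv1 was at 335 and 285 FPKM in wild-type cells, against 16.6 and 9.15 FPKM in knockout cells. Spaca1 was at 529 and 487 FPKM against 45.8 and 31.0 FPKM. The summed level of all 10 was 8163 and 6788 FPKM in wild-type cells, against 7356 and 6515 FPKM in knockout cells. Its main part was the sperm lactate dehydrogenase gene Ldhc, at 5002.5 and 4016 FPKM against 5186 and 5056 FPKM. Ldhc was the 1 marker above the wild type in both knockout libraries, so the sums do not show how the other markers stood. Spermatocyte markers, which include the synaptonemal complex gene Sycp3, summed to 496 and 473 FPKM in wild-type cells, against 563 and 442 FPKM in knockout cells. Of these 10 markers 8, Sycp3 among them, were lower in both knockout libraries (1 past the threshold). The sums overlapped through Ccna1 alone, at 163 and 192 FPKM against 369 and 210 FPKM. Beside both marker counts, 38.6% of all 9124 genes tested were lower in both knockout libraries, and 13.4% were lower past the threshold. Nothing is read from counts of so few markers.

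The members differed from each other in how they stood between genotypes. Both knockout values lay below both wild-type values for 5 of the 10 genes (38.6% of the 9124 genes tested did so), namely Tmsb15a, Pfn3, Pfn4, Actb and Cfl1. Both lay above for Actg1 and Tmsb4x (22.2% of all genes tested), and the genotypes overlapped for Tmsb10, Pfn1 and Pfn2. In a limma fit over the 9124 genes with a mean of at least 1 FPKM, which all 10 members passed, 3 members were lower at an adjusted p under 0.05, Tmsb15a, Pfn3 and Actb, against 13.4% of all genes tested. No member was higher by limma at an adjusted p under 0.05, against 1.95% of all genes tested. At an unadjusted p under 0.05 in the same limma fit 0 of 10 were higher, against 757 of the 9124 genes tested. These counts come from the contrast by which the set was chosen and are not read further, and adjusted p-values of single members are given below on the same terms. The median log2 change of the 3 testis forms was -7.20, that of the 7 widely expressed forms was 0.28, and that of all genes tested was -0.23. The testis forms ran from -8.29 to -1.01 (Pfn4) and the widely expressed forms from -1.99 (Actb) to 0.58, so the ranges overlapped. These medians are not read further either.

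**Figure D1:**
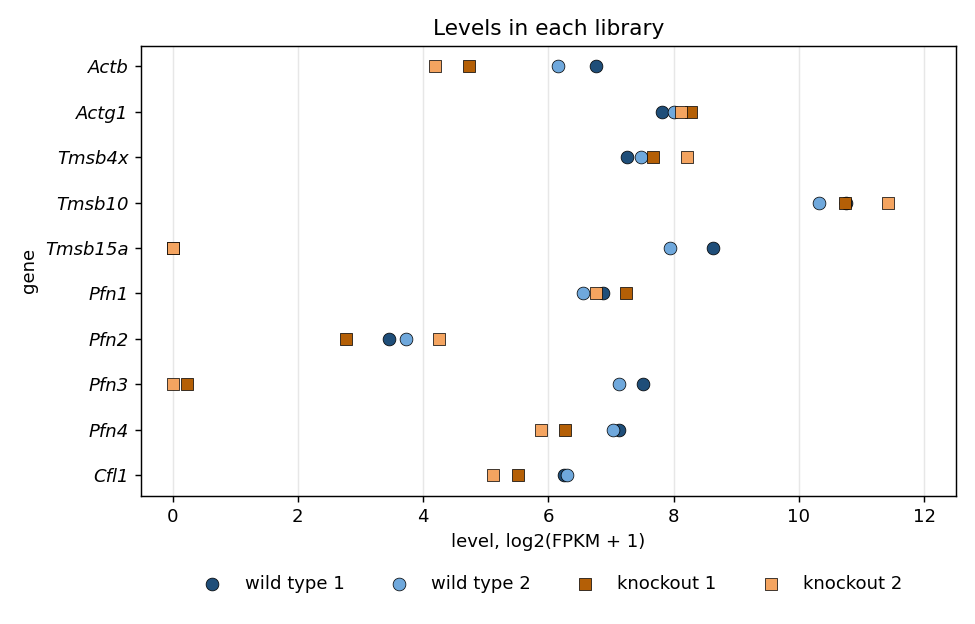
Level of each of the 10 genes in each library on the log2(FPKM + 1) scale, with circles for the 2 wild-type and squares for the 2 knockout libraries. Tmsb15a and Pfn3 lie at or next to 0 in both knockout libraries, Actb, Pfn4 and Cfl1 lie below the wild type, and the other genes overlap it or lie above it.

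Actb and Actg1 code for beta-actin and gamma-actin, the 2 actins of nonmuscle cells. Actb was at 107 and 70.1 FPKM in wild-type cells, against 25.7 and 17.2 FPKM in knockout cells. The genotypes did not overlap: the higher knockout value was well below the lower wild-type value, and values within a genotype differed by 1.53-fold and 1.49-fold. The knockout mean was 24.2% of the wild-type mean, and the log2 change was -1.99 (SE 0.37). Of all genes tested, 9.88% had a lower change than Actb. Actg1 went the other way, from 224 and 257 FPKM in wild-type cells to 309 and 275 FPKM in knockout cells. Its knockout values were both above the wild-type values but by a small margin, with a log2 change of 0.28 (95% interval -0.37 to 0.94, limma adjusted p = 0.511), which did not pass the threshold.

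The shares of the cytoplasmic actin transcripts stood apart between genotypes, while their sum overlapped. Actb supplied 32.4% and 21.4% of the summed Actb and Actg1 level in the wild type, and 7.69% and 5.89% in the knockout. The sum was 331 and 327 FPKM in wild-type cells, against 334 and 293 FPKM in knockout cells, so that knockout library 1 had the highest and knockout library 2 the lowest sum. The coding sequences of the pair are 88.6% identical in GENCODE M21, whose build is not that of the deposited tables. Of all 50-base stretches of the Actb transcript 14.2% also occur in transcripts of other genes, mainly Lrrc58, and of Actg1 56.7%, mainly the predicted gene Gm12715. Reads from such stretches can be assigned to either copy, and the value of Actg1 in particular is uncertain for this reason.

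Muscle actins gave a further actin signal in the wild type. Actg2, the enteric smooth muscle actin, was at 72.8 and 62.9 FPKM in wild-type cells and fell to 1.63 and 0.102 FPKM in knockout cells, a log2 change of -5.34 (SE 0.49). Acta2, the vascular smooth muscle actin, named here after its values were seen, fell from 7.61 and 6.39 FPKM down to 1.23 FPKM and a listed 0. The wild-type values of Actg2 overlapped those of Actb. None of the 50-base stretches of the Actg2 transcript occurs in transcripts of another gene. With Actg2 and Acta2 counted in, the summed actin level was 411 and 396 FPKM in wild-type cells, against 337 and 293 FPKM in knockout cells, and the genotypes no longer overlapped. Actg2 and Acta2 are also markers of the peritubular muscle-like cells of the testis. The other 4 markers of those cells, Myh11, Tagln, Cnn1 and Des, were between 0 and 2.23 FPKM in every library.

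Summed markers of several other cell types were below the wild type in both knockout libraries, as was Actb, which many cell types make. Leydig cell markers summed to 60.4 and 37.9 FPKM in wild-type cells. Their sum was 0.0674 FPKM in knockout library 1 and 1.47e-242 FPKM, in effect 0, in knockout library 2. Most of the wild-type sum was Insl3, at 54.8 and 30.3 FPKM, and each other Leydig marker was at 3.40 FPKM or less. Of the 9 markers 7 were listed at 0 in both knockout libraries, 1 of them also in both wild-type libraries. Of all symbols, 41.4% and 49.3% were listed at 0 in knockout libraries 1 and 2. Red blood cell markers summed to 248 and 148 FPKM against 8.51 and 0.178 FPKM. Most of the wild-type sum was Hba-a1, at 220 and 109 FPKM, and Hba-a2 and Hbb-b2 overlapped between genotypes. Spermatogonial markers summed to 33.6 and 37.1 FPKM against 7.13 and 5.69 FPKM. The largest part was Uchl1, and 8 of the 10 were lower in both knockout libraries. Nanos3 overlapped, at 1.47 and 0.956 FPKM against 1.08 and 2.41 FPKM. Sertoli cell markers, mainly Clu (limma adjusted p = 0.126), summed to 107 and 276 FPKM against 80.6 and 43.2 FPKM. By contrast 11 leukocyte markers summed to 1.49 and 3.04 FPKM in wild-type cells, against 3.64 and 2.20 FPKM in knockout cells, and 8 endothelial markers to 2.02 and 2.27 FPKM against 7.09 and 17.2 FPKM. Of the endothelial markers only Cldn5 and Egfl7 were above the wild type in both knockout libraries and Vwf was below it, and the other 5 were between 0 and 0.652 FPKM. The part of these cells in the level of Actb was not tested. In RNA pooled from many cells, fewer cells of a type and less RNA per cell cannot be told apart.

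**Figure D2:**
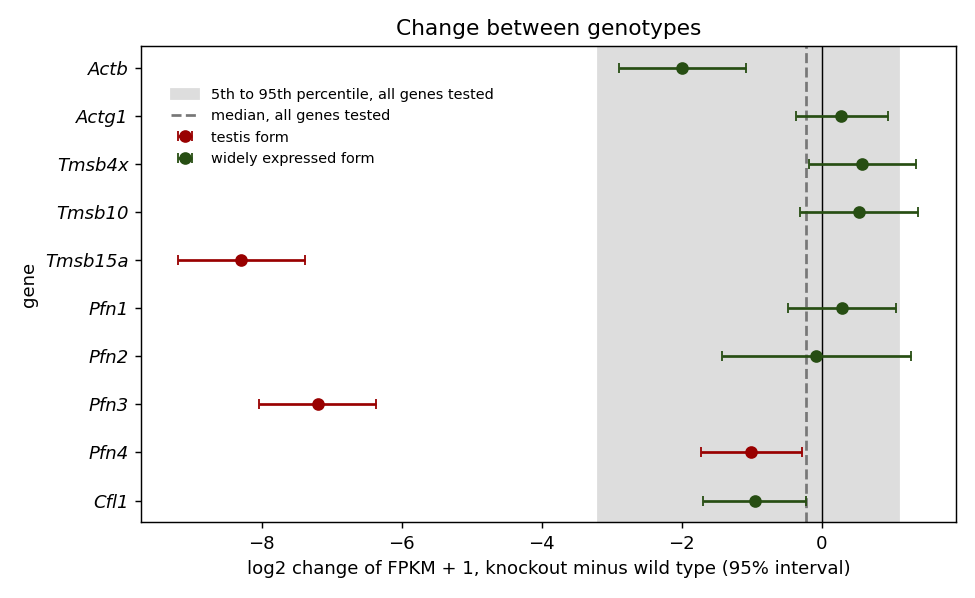
Log2 change of FPKM + 1 from wild type to knockout for each gene, with the 95% interval of the limma fit, for testis forms (red) and widely expressed forms (green). The grey band runs from the 5th to the 95th percentile of all genes tested, -3.19 to 1.10. Tmsb15a and Pfn3 lie outside it, and the size of their change depends on the pseudocount of 1.

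Tmsb15a had the largest difference between genotypes among the 10 genes on the log2(FPKM + 1) scale, though not in FPKM, where the means of Tmsb10 lay further apart. It is a beta-thymosin gene on the X chromosome. It was at 395 and 244 FPKM in wild-type cells, the second highest mean after Tmsb10 among the members, and was listed at 0 in both knockout libraries. No fold change can be given against listed zeros, and the part of the larger number of zeros in the knockout libraries in this value was not tested. On the log2(FPKM + 1) scale the change was -8.29, and it was -11.60 when 0.1 rather than 1 was added to each value and -5.98 when 5 was added. Among the 932 genes with both wild-type values at 100 FPKM or more, 8 were listed at 0 in both knockout libraries, and Tmsb15a was 1 of these.

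The widely expressed thymosins overlapped the wild type or lay above it. Tmsb4x, also on the X chromosome, was at 151 and 177 FPKM in wild-type cells, against 202 and 297 FPKM in knockout cells. Both knockout values were above the wild type, with a log2 change of 0.58 (95% interval -0.19 to 1.34, limma adjusted p = 0.259). The change ranged over 0.30 to 0.85 when any 1 library was dropped. Tmsb10 was the most abundant member in each library, at 1727 and 1279 FPKM in wild-type cells, against 1696 and 2732 FPKM in knockout cells. Among the genes tested it ranked 34 and 39 in the wild-type and 50 and 39 in the knockout libraries. The genotypes overlapped, knockout library 2 alone being high, and the log2 change was 0.53 (95% interval -0.31 to 1.38, limma adjusted p = 0.338). Quantile normalization gave Tmsb10 the other sign, -0.17. Of the 50-base stretches of its transcript, 43.5% occur in transcripts of other genes, mostly the predicted gene Gm9844, so the Tmsb10 level may hold reads of copies.

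The coding sequences of these genes show how far reads can tell them apart, since only Tmsb15a was listed at 0 in both knockout libraries. They are printed here without the stop codon, in lower case, from GENCODE M21. Capitals mark the bases that differ from Tmsb15a in a pairwise alignment.
Tmsb15a: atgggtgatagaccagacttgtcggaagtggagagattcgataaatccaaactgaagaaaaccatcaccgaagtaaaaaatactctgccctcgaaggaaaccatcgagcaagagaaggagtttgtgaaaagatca
Tmsb15b1: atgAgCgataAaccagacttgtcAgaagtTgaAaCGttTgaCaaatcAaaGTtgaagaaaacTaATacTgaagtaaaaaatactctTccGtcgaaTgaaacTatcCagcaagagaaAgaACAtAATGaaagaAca
Tmsb4x: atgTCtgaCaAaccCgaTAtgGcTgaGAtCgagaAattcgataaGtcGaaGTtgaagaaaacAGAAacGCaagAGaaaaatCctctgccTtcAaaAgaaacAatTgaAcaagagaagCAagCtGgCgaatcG
Tmsb10: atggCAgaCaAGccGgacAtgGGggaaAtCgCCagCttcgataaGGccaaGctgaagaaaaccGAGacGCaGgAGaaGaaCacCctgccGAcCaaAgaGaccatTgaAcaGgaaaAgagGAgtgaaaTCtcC
Tmsb15b1 was 77.0% identical to Tmsb15a, Tmsb4x 69.1% and Tmsb10 66.7%. None of the 250 stretches of 50 bases in the Tmsb15a transcript occurs in a transcript of another gene, so reads of that length from these relatives do not match Tmsb15a exactly. The same was found for Tmsb4x, for which 0 of 719 stretches are shared.

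The other genes of the Tmsb15 group were also lower in both knockout libraries, but each kept some signal in at least 1 of them. Tmsb15b2 was at 102 and 94.4 FPKM in wild-type cells, against 36.7 and 54.4 FPKM in knockout cells, a log2 change of -1.12 (95% interval -1.90 to -0.33) that did not pass the threshold. Tmsb15b1 was at 8.36 and 8.79 FPKM against 3.26 FPKM and a listed 0, and did not pass either. Tmsb15l, named after its values were seen, fell from 22.1 and 22.8 FPKM down to 1.09 and 4.19 FPKM. Of the 50-base stretches of Tmsb15b1, 59.2% also occur in transcripts of Tmsb15l, and some in Tmsb15b2, so the separate values of these 3 are uncertain. The sum over the whole Tmsb15 group was 528 and 370 FPKM in wild-type cells, against 41.1 and 58.5 FPKM in knockout cells, 11.1% of the wild-type mean. Tmsb15a supplied 74.9% and 66.0% of that sum in the wild type and none of it in the knockout. In the sum of Tmsb4x, Tmsb10 and Tmsb15a, by comparison, Tmsb15a supplied 17.4% and 14.4% in the wild type, and the sums overlapped, at 2273 and 1701 FPKM in wild-type cells, against 1898 and 3028 FPKM in knockout cells.

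**Figure D3:**
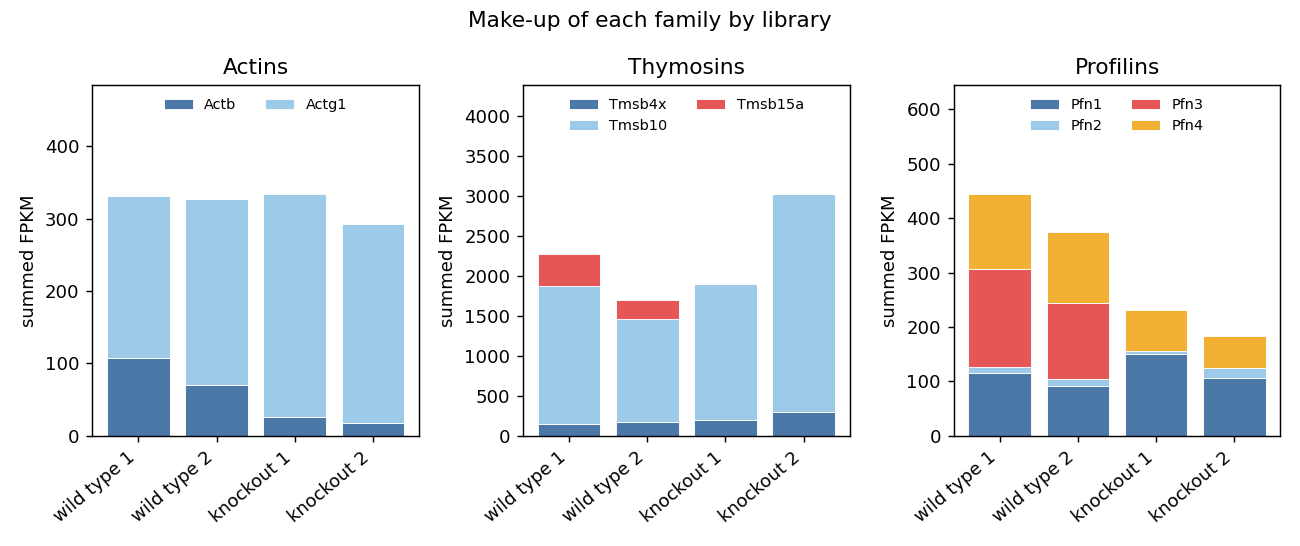
Summed FPKM of the actins, the thymosins and the profilins in each library, stacked by gene, with each axis starting at 0. Tmsb15a and Pfn3 are not visible in the knockout bars, and the profilin sums of 231 and 183 FPKM are below the wild-type sums of 445 and 375 FPKM, while the actin and thymosin sums overlap.

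Of the 4 profilins, Pfn3 alone passed the threshold. Pfn3 was at 181 and 140 FPKM in wild-type cells, and was at 0.178 FPKM in knockout library 1 and listed at 0 in knockout library 2. The transcript was thus almost lost from both knockout libraries, with a log2 change of -7.20 (SE 0.34), which was -9.90 when 0.1 rather than 1 was added to each value and -5.01 when 5 was added. Of the 932 genes at 100 FPKM or more in both wild-type libraries, 23 were under 1 FPKM in both knockout libraries, Pfn3 and Tmsb15a among them. Pfn4 was at 139 and 130 FPKM in wild-type cells, against 75.7 and 58.3 FPKM in knockout cells. It was lower in both knockout libraries, at 49.8% of the wild-type mean, with a log2 change of -1.01 (95% interval -1.72 to -0.29, limma adjusted p = 0.0735) that missed the threshold. The change was -0.56 after a correction for the GC content of transcripts. It stayed between -1.19 and -0.82 when any 1 library was dropped.

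Pfn1, the profilin of most tissues, was at 116 and 92.4 FPKM in wild-type cells, against 149 and 107 FPKM in knockout cells. The genotypes overlapped (log2 change 0.29, 95% interval -0.48 to 1.06, limma adjusted p = 0.566). Pfn2, the profilin best known from brain, was the lowest member in the wild type, at 9.93 and 12.3 FPKM against 5.83 and 18.1 FPKM in knockout cells. Its knockout libraries lay on either side of the wild type and differed by 3.10-fold, so no direction can be given (log2 change -0.08, 95% interval -1.42 to 1.27, limma adjusted p = 0.936), and its sign changed with the setting. Identity of the coding sequences was 62.2% for Pfn1 and Pfn2, 55.4% for Pfn1 and Pfn3, 45.7% for Pfn1 and Pfn4 and 47.1% for the testis pair Pfn3 and Pfn4. No 50-base stretch of any of the 4 transcripts occurs in a transcript of another gene.

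With Pfn3 almost gone from the sum, the shares of the other profilins are taken over a smaller total. Pfn3 supplied 40.6% and 37.3% of the summed profilin level in the wild type and 0.0768% and 0% in the knockout. The share of Pfn4 stayed between 31.1% and 34.8% in all 4 libraries, while that of Pfn1 was 26.0% and 24.7% in the wild type and 64.7% and 58.4% in the knockout, although the FPKM of Pfn1 overlapped between genotypes. Summed profilin was 445 and 375 FPKM in wild-type cells, against 231 and 183 FPKM in knockout cells, 50.6% of the wild-type mean. Relative to the summed cytoplasmic actins it was 1.35 and 1.15 in the wild type and 0.691 and 0.627 in the knockout. Thymosins relative to the same actins overlapped between genotypes, at 6.87 and 5.20 against 5.68 and 10.3.

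Cfl1, the nonmuscle cofilin, was at 75.3 and 77.9 FPKM in wild-type cells, against 44.5 and 33.8 FPKM in knockout cells. Both knockout values were lower, at 51.1% of the wild-type mean, but the log2 change of -0.96 (95% interval -1.70 to -0.23, limma adjusted p = 0.0894) missed the threshold. Leaving out each library in turn gave Cfl1 changes between -1.16 and -0.77. Of the 50-base stretches of its transcript 9.1% occur in transcripts of other genes. The ratio of Cfl1 to the summed cytoplasmic actins was 0.228 and 0.238 in the wild type and 0.133 and 0.115 in the knockout.

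Ordered by their mean wild-type levels, the members ran Tmsb10, Tmsb15a, Actg1, Tmsb4x, Pfn3, Pfn4, Pfn1, Actb, Cfl1 and Pfn2, from 1503 to 11.1 FPKM. Among neighbours in that order, the wild-type values of Tmsb15a and Actg1, of Tmsb4x and Pfn3, of Pfn1 and Actb and of Actb and Cfl1 overlapped. In the knockout the order was Tmsb10, Actg1, Tmsb4x, Pfn1, Pfn4, Cfl1, Actb, Pfn2, Pfn3 and Tmsb15a. Knockout values overlapped for Actg1 with Tmsb4x and for Actb with Pfn2. All 10 genes together held 0.550% and 0.495% of the summed FPKM in wild-type and 0.420% and 0.525% in knockout libraries.

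Promoter sequence was at hand from RefSeq (GRCm38.p6) for 9 of the 10 members, Actb being the one without an entry. The 250 bases before the start are printed for the 2 testis forms that were nearly lost, with capitals for each match, on either strand, to ACAAT, core letters bound by SOX proteins, or to TGACG, letters of the cAMP response element bound by factors such as CREM. The Tmsb15a window is chrX:135720674-135720923 and that of Pfn3 is chr13:55415233-55415482, both on the minus strand.
Tmsb15a: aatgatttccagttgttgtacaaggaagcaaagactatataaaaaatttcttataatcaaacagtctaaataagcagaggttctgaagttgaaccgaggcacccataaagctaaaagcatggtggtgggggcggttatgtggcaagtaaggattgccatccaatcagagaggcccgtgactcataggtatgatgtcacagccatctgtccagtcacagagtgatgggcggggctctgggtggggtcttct
Pfn3: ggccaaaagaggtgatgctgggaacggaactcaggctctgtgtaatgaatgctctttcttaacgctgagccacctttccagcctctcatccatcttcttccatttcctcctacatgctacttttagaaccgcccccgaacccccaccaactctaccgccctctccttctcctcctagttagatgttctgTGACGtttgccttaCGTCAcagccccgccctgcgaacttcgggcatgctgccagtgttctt
The Tmsb15a window holds neither motif, and the Pfn3 window holds TGACG at 2 places and no ACAAT. Of 11 promoter entries for the 9 members, 2 hold ACAAT, for Tmsb10 and Pfn2, and 2 hold TGACG, for Pfn3 and Tmsb4x. Among all 32851 promoter entries of this length, 27.7% hold ACAAT and 17.8% hold TGACG. The letters are absent from, or present in, these windows only, and no binding was measured.

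Genes with the pattern most like that of Tmsb15a and Actb were found by the smallest root mean square difference over the 4 libraries, on the log2(FPKM + 1) scale after subtraction of the wild-type mean, among genes of like wild-type level. For Tmsb15a, with 513 candidates, they were Dnajc5b, a J-domain protein gene (0.089), Hmgb4, which codes for an HMG-box protein (0.277), and 1700018C11Rik (0.409). Dnajc5b was at 352 and 256 FPKM in wild-type cells and listed at 0 in both knockout libraries. For Actb, with 1239 candidates, they were Zdhhc11, a gene of the palmitoyltransferase family (0.135), Sun3, which codes for a nuclear envelope protein (0.140), and BC051628 (0.201). Sun3 was at 63.6 and 52.8 FPKM in wild-type cells, against 18.6 and 11.9 FPKM in knockout cells. With 4 libraries such likeness is a description only.

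Other genes of actin assembly were taken from a list of 136, all found in the tables, some under older symbols. Of 80 with a mean of at least 1 FPKM, 18 fell, 1 rose and 61 did not pass the threshold, where 13.4% of all genes tested fell and 1.95% rose. Their median log2 change was -0.58, beside -0.23 for all genes tested. The list was chosen with earlier results of these data known, so these differences from all genes are not read further. The counts moved with the libraries used: 5 fell without wild-type library 1, 0 without wild-type library 2 (limma, where 18 had an unadjusted p under 0.05), 37 without knockout library 1 and 25 without knockout library 2. Of all 9124 genes 4.23%, 0%, 33.7% and 20.2% fell in these fits and 0%, 0%, 10.8% and 9.84% rose. Rises of list genes in the same order numbered 0, 0, 5 and 6, with 0 and 1 at an unadjusted p under 0.05 in the first pair.

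Among capping and severing proteins 2 of 9 tested genes fell, against 13.4% of all genes tested, and nothing is read from so small a count. Capza3, the testis form of the subunit that caps filament ends, fell from 113 and 84.3 FPKM down to 0.858 and 0.0537 FPKM, a log2 change of -6.14 (SE 0.42). Its widely expressed relative Capza1 was at 44.2 and 43.9 FPKM against 32.7 and 19.5 FPKM, and the partner subunit Capzb was at 127 and 117 FPKM against 180 and 101 FPKM, neither passing. The testis form was thus nearly lost, while the other form and the partner subunit were present in all 4 libraries.

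In the group of actin-related and actin-like proteins 6 of 15 tested genes fell and 9 did not pass, against 13.4% of all genes tested that fell, and the difference was not tested. Those named are Actrt2, Actl7a, Actl10, Actrt1 and Actrt3, which code for actin-related proteins made in the testis. Actl10, Actrt1 and Actrt3 were between 11.1 and 18.5 FPKM in wild-type cells and listed at 0 in both knockout libraries. Actrt2 fell from 173 and 128 FPKM down to 1.33 FPKM and a listed 0, and Actl7a from 113 and 129 FPKM to 8.04 and 3.07 FPKM. Actl7b, a close relative of Actl7a, was at 200 and 251 FPKM in wild-type cells, against 331 and 268 FPKM in knockout cells (log2 change 0.41), and Actr10, a dynactin subunit, was at 185 and 154 FPKM against 130 and 94.2 FPKM.

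Genes of cofilin turnover held the only rise in the list. Cap1, a widely expressed protein that recycles actin monomers with cofilin, rose from 1.68 and 2.76 FPKM to 7.98 and 14.4 FPKM, a log2 change of 1.89 (SE 0.43). Its relative Cap2, named after its values were seen, fell from 16.1 and 13.3 FPKM down to 1.84 and 1.01 FPKM. Coro2a, a coronin, fell from 11.5 and 19.5 FPKM down to 0.446 and 0.548 FPKM, and in all 3 of 15 tested genes in this group fell (13.4% of all genes tested). Tesk1, a testis kinase that phosphorylates cofilin, was at 16.4 and 32.4 FPKM against 56.3 and 42.2 FPKM, and Gmfb at 53.9 and 45.5 FPKM against 53.0 and 98.9 FPKM, without passing.

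The Arp2/3 complex, which starts branched filaments, and its activators showed 1 fall among 17 tested genes, and here and in the next groups the share of all genes tested that fell, 13.4%, allows no reading of such small counts. The abundant subunit gene Arpc2 was at 139 and 112 FPKM against 122 and 108 FPKM (95% interval of the log2 change -0.81 to 0.58), and Arpc5l at 159 and 138 FPKM against 198 and 217 FPKM, neither passing. Of the formins and related nucleators 2 of 6 fell, with Fmnl1 at 9.78 and 13.7 FPKM against 5.93 and 1.77 FPKM and Spire2 at 4.37 and 8.77 FPKM against 25.5 and 3.06 FPKM, neither passing. Among bundling and filament-binding proteins 1 of 10 fell, and the membrane linker Rdx, at 58.9 and 57.6 FPKM against 51.0 and 65.1 FPKM, and the adhesion protein gene Vcl, at 4.14 and 5.06 FPKM against 1.36 and 1.12 FPKM, did not pass. Srf, the transcription factor that governs Actb and many cytoskeletal genes, was at 6.89 and 8.31 FPKM in wild-type cells, against 10.5 and 6.11 FPKM in knockout cells, and 0 of 3 tested genes of its pathway passed (limma, 0 at an unadjusted p under 0.05). Mkl2, a cofactor of Srf, was at 4.82 and 3.22 FPKM against 3.11 FPKM and a listed 0.

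**Figure D4:**
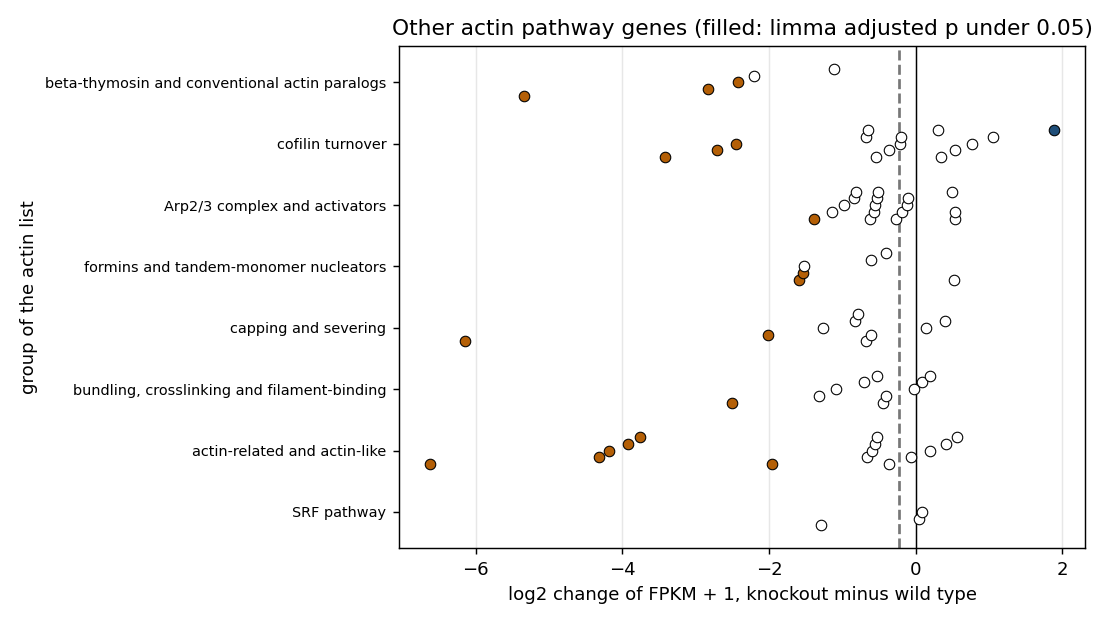
Log2 change of FPKM + 1 from wild type to knockout for the 80 tested genes of the actin list, 1 circle a gene, by group, with the dashed line at the median of all genes tested (-0.23). Filled circles passed the threshold, orange for lower (18 genes) and blue for higher (1 gene).

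The member changes were recomputed with other pseudocounts, filters and scalings and without each library. Tmsb15a, Pfn3, Pfn4, Actb and Cfl1 kept a negative and Actg1, Tmsb4x and Pfn1 a positive sign in all 13 alternatives, while Pfn2 and Tmsb10 did not. Under quantile normalization the median of all genes was 0.17, so that the 0.15 of Actg1 lay just below it. With GC correction the 0.01 of Pfn1 likewise lay just below the median of 0.02, so its sign is not firm. The calls were less stable than the signs. Actb no longer passed without wild-type library 1, without wild-type library 2 or with no filter on low values, and Tmsb15a and Pfn3 no longer passed without wild-type library 2. Without knockout library 1, 5 members were lower and 1 higher, and so were 33.7% and 10.8% of all genes tested.

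**Figure D5:**
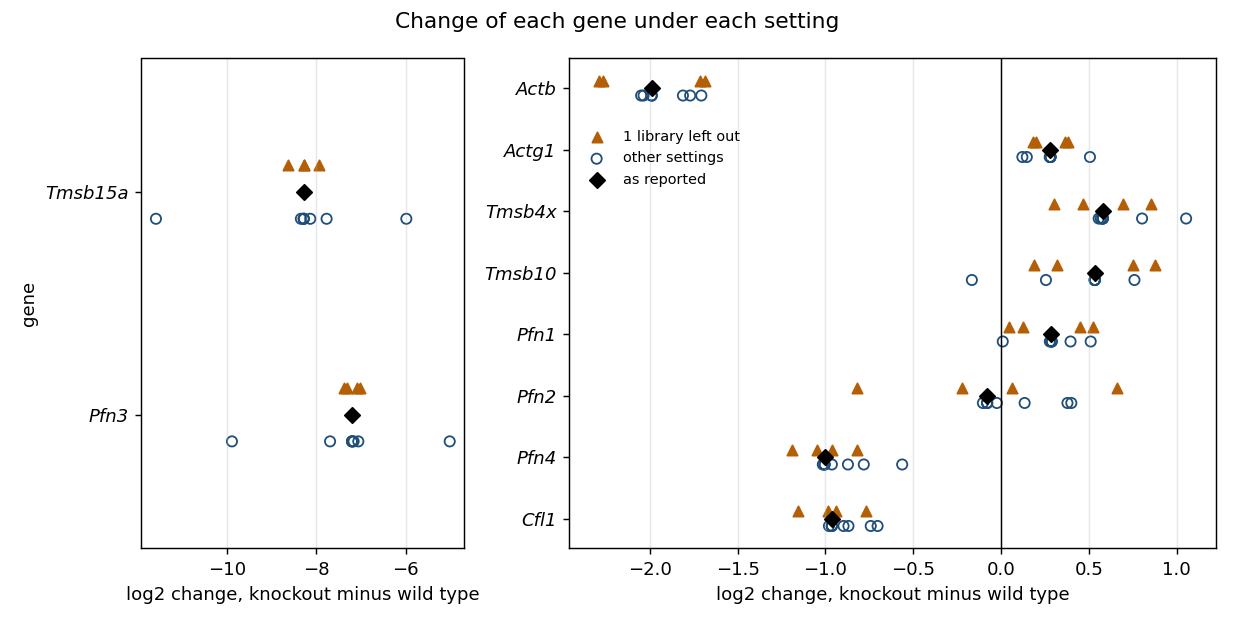
Log2 change of each gene as reported (diamond), with 1 library left out (triangles) and under the other settings (open circles), on separate scales for Tmsb15a and Pfn3 and for the other 8 genes. Pfn2 spans 0 from -0.82 to 0.66, and Actb stays between -2.29 and -1.69.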

How the data were processed

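RNA sequencing of sorted haploid testis cells gave 4 libraries, 2 per genotype, grouped by their titles. The authors deposited FPKM for each library, 23021 entries for 22552 symbols. TopHat2 2.0.6 is listed in the submitters' processing notes, with Cufflinks 2.0.2 and Cuffdiff and the build mm9. How they were set, and whether strand was used, is not stated there. Read counts were not used, so no counting intervals are given.

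Entries of a symbol were summed (259 symbols). Genes with a mean of at least 1 FPKM were fitted on log2(FPKM + 1) with limma 3.58.1 in R 4.3.3, with genotype as the only term, a mean-variance trend and Benjamini-Hochberg adjustment (two-sided, threshold 0.05). Residual degrees of freedom were 2. This scale understates changes of low genes. The code was tested on simulated data. Members and lists were chosen with earlier results of these data known. Named from the actin list were up to 8 genes called in each direction and, per group, up to 2 abundant genes not called. Transcripts came from GENCODE M21 (APPRIS principal) and promoters from RefSeq, both by symbol. Coding sequences were aligned with Biopython 1.88.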

Additional observations from a re-analysis of the deposited data

How the results depend on the processing

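Results rest on 2 libraries per genotype. Over all genes, leaving out 1 library gave from 0 to 3071 genes lower and from 0 to 984 higher, beside 1221 and 178. For the actin list it gave from 0 to 37 lower and from 0 to 6 higher, beside 18 and 1. The 0 came without wild-type library 2, where limma left 1180 genes lower and 232 higher at an unadjusted p under 0.05, and, for rises, also without wild-type library 1 (184 at an unadjusted p under 0.05). A single library left in a genotype is assumed to vary like those of the other genotype. The 2 pairs differed in spread, however. Across genes, the log2 difference within a pair had a standard deviation of 0.49 in the wild type and 0.85 in the knockout. The part of this in the counts was not tested. With no filter on low values 696 genes were lower and 32 higher, 7 and 0 in the actin list. A mean of at least 5 FPKM gave 787 lower, 11 in the list, with fewer genes tested. Higher genes numbered 113 with a pseudocount of 0.1 (0 in the list), 273 with median-ratio scaling, 608 with quantile normalization and 313 with GC correction (2 in the list), and the cause was not tested. Lower genes were 87.3% of the calls, 62.5% after quantile normalization. The median change of all genes moved from -0.23 to -0.05 with median-ratio scaling, 0.17 with quantile normalization and 0.02 with GC correction.

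Of 130 member values under 13 alternatives, 6 changed sign. Pfn2 ranged from -0.82 to 0.66 with 1 library left out (0.06 without wild-type library 2), and was 0.13 with median-ratio scaling, 0.40 with quantile normalization and 0.38 with GC correction. Tmsb10 was -0.17 with quantile normalization. GC correction was chosen after seeing the data.

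With the library number as a replicate block 82 genes were higher and 1056 lower, 1 and 16 in the list, and the same number of 3 members was called. Same-numbered libraries did not deviate together (r = -0.20 across genes). The crossed pairing, chosen after seeing the data, gave 390 higher and 1416 lower. FPKM do not give the depth, so the error of single low values and listed zeros is unknown.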
